A study of Homo sapiens with 6 samples.

Results

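YAP and its paralog TAZ are coactivators that bind TEAD transcription factors, and 10 genes widely used as readouts of that complex were followed here between Cal27-shGRK2 and Cal27 cells. The genes were CTGF, CYR61, ANKRD1, AXL, NT5E, DLC1, AMOTL1, AMOTL2, IGFBP3 and LATS2, taken by symbol, and all 10 were found among the 18678 genes of the deposited table. CTGF and CYR61 are older symbols of CCN2 and CCN1. In Cal27-shGRK2 cells 7 of the 10 genes were higher, led by DLC1, ANKRD1, NT5E and AXL, 2 were lower, AMOTL1 and IGFBP3, and CTGF did not pass the test. DLC1 was expressed highly enough to be tested only because of its level in Cal27-shGRK2. Of all 13377 genes tested, 15% were called higher and 14.6% lower, which is 29.6% in either direction. These are 2008 higher and 1949 lower genes. When the libraries were rescaled to a common total, 14483 genes were tested and the split became 2927 higher and 1575 lower.

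Cal27-shGRK2 is the Cal27 line carrying a short hairpin RNA against the receptor kinase GRK2, and Cal27 itself, an established tongue squamous carcinoma line, was its comparison. The labels name 3 libraries in each group and do not say whether Cal27 carried a control hairpin, how many hairpins or clones were used, or whether each library is a culture of its own. The p-values and SEs below therefore reflect the spread between these libraries, which may be technical. The limma fit also draws each gene's spread toward a trend over all genes tested. Its p-values and SEs thus do not rest on a gene's own libraries alone. Both groups grew in medium with 10% serum and were harvested at 70% confluence. The study's title concerns GRK2 and how head and neck carcinoma cells keep epithelial traits.

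The Hippo pathway is a kinase cascade in which the MST kinases activate the LATS kinases, and LATS phosphorylates YAP and TAZ so that they are kept in the cytoplasm. When cells are sparse, spread or under tension, YAP and TAZ enter the nucleus and act through TEAD factors on genes of adhesion, the cytoskeleton and growth. Several targets feed back on the pathway, among them LATS2 and the angiomotins. G protein-coupled receptors are known upstream inputs of YAP and TAZ.

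Expression was given as FPKM, fragments scaled by transcript length and library size, from which depth is unknown. Totals over the table were 590163 and 615468 FPKM in the Cal27-shGRK2 libraries and 613330 to 644831 FPKM in Cal27. Cal27-shGRK2 replicates 0 and 1 had the same value in each of 18678 genes, against 77 genes for replicate 2 and either of them. The 2 columns thus hold 1 set of values and were counted as 1 sample, which leaves 2 Cal27-shGRK2 and 3 Cal27 libraries. Which replicate the shared values belong to is not known. If the authors' value per condition is a mean of 3 libraries, the missing one had 18.0 FPKM of GRK2. GRK2, listed as ADRBK1, had 17.3 and 16.6 FPKM in the Cal27-shGRK2 libraries and 55.3, 59.4 and 55.8 FPKM in Cal27 (log2 fold change -1.69 ± 0.06, SE, limma adjusted p = 3.77e-11). Of 8 squamous and epithelial markers, all reached the filter, 2 were higher and 6 lower in Cal27-shGRK2, and their summed FPKM was 1105 to 1130 in Cal27-shGRK2 and 2762 to 3068 in Cal27. The basal keratin KRT5 had 740 and 773 FPKM in Cal27-shGRK2, against 2073 to 2322 FPKM in Cal27 (log2 fold change -1.53), KRT17 averaged 53.8 FPKM in Cal27-shGRK2 and 446 FPKM in Cal27 (-3.03), and KRT14 averaged 0.197 FPKM in Cal27-shGRK2 and 18.9 FPKM in Cal27 (-4.05). These 3 were picked after their values were seen, and KRT14 passed the filter only through the Cal27 libraries. The 2 higher markers were CDH1 (log2 fold change 0.57, limma adjusted p = 5.57e-06) and EPCAM (0.45, 9.2e-05). Of 8 fibroblast markers only COL1A1 reached 1 FPKM, and the summed level of the 4 that were measured was 4.38 to 4.46 FPKM in Cal27-shGRK2 and 4.35 to 4.71 FPKM in Cal27. Of 7 blood and endothelial markers 3 were measured, with a summed FPKM of 11.2 to 12.2 in Cal27-shGRK2 and 5.19 to 5.84 in Cal27. CD68 and CDH5 were higher, CD34 stayed under 1 FPKM in every library, and PTPRC, PECAM1, VWF and TYROBP were not analysed here. The part of these markers in the results below was not tested, and fewer cells of a type and less RNA per cell cannot be told apart in bulk libraries.

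The stretches just before the annotated starts are shown for 3 genes because they carry the short motif bound by TEAD factors and because these genes differed in response. The motif was searched as CATTCC on both strands, so that it appears as CATTCC or GGAATG, in the 250 bases before each start in RefSeq's GRCh38.p14 annotation. Starts of 8 of the 10 genes were searched, 10 starts in all. CYR61 and DLC1 were not searched, so whether a match stands before them is not known here. At least 1 match stood before 4 of these 10 starts, belonging to 4 genes, whereas 11.9% of 35116 human promoter windows of that length held 1. The genes were listed as known TEAD targets, so a difference from that share is no independent evidence. Capitals mark the matches, and each sequence is read on the strand of the gene.
CTGF, chr6:131951373-131951622, minus strand: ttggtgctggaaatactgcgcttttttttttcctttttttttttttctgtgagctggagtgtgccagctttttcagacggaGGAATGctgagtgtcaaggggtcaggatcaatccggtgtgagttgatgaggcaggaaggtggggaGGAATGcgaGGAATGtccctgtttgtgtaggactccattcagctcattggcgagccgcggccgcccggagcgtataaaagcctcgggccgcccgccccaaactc
ANKRD1, chr10:90921088-90921337, minus strand: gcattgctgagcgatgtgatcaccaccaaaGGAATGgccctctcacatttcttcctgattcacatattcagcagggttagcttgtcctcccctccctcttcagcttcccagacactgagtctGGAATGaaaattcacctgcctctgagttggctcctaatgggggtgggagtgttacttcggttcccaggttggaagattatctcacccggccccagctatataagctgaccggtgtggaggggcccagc
AMOTL2, chr3:134374448-134374697, minus strand: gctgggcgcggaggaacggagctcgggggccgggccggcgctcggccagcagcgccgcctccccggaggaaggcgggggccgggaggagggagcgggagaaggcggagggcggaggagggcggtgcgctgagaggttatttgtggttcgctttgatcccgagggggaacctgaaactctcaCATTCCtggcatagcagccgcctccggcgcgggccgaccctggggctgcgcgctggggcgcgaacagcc

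CTGF held 3 matches, beginning 169, 104 and 95 bases before the start, and ANKRD1 held 2, at 220 and 128 bases. AMOTL2 held 1 at 69 bases, before 1 of its 2 annotated starts, and AXL 1 at 212 bases, also before 1 of 2 starts. At least 2 matches occurred in 0.94% of all windows, which were not chosen as TEAD targets. A pattern looser than the AP-1 motif, TGANTCA with any base at N, was also searched, and it reads the same on both strands. It stood 195 bases before the ANKRD1 start, without overlapping a TEAD match, and in 6.57% of all windows. The ANKRD1 match read TGATTCA, with T where the usual AP-1 motif has C or G. No match to either motif was found before NT5E, AMOTL1, IGFBP3 or LATS2 in this window. The AMOTL1 window, bases 94768106 to 94768355, lay inside the gene's GENCODE span, which begins at 94706431, and that beginning was not searched. The windows of NT5E and IGFBP3 also lay inside their GENCODE spans. CTGF, with the most matches, did not pass the test between the groups, whereas ANKRD1 rose. A match here is a description of letters and was not tested as a binding site.

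**Figure D1:**
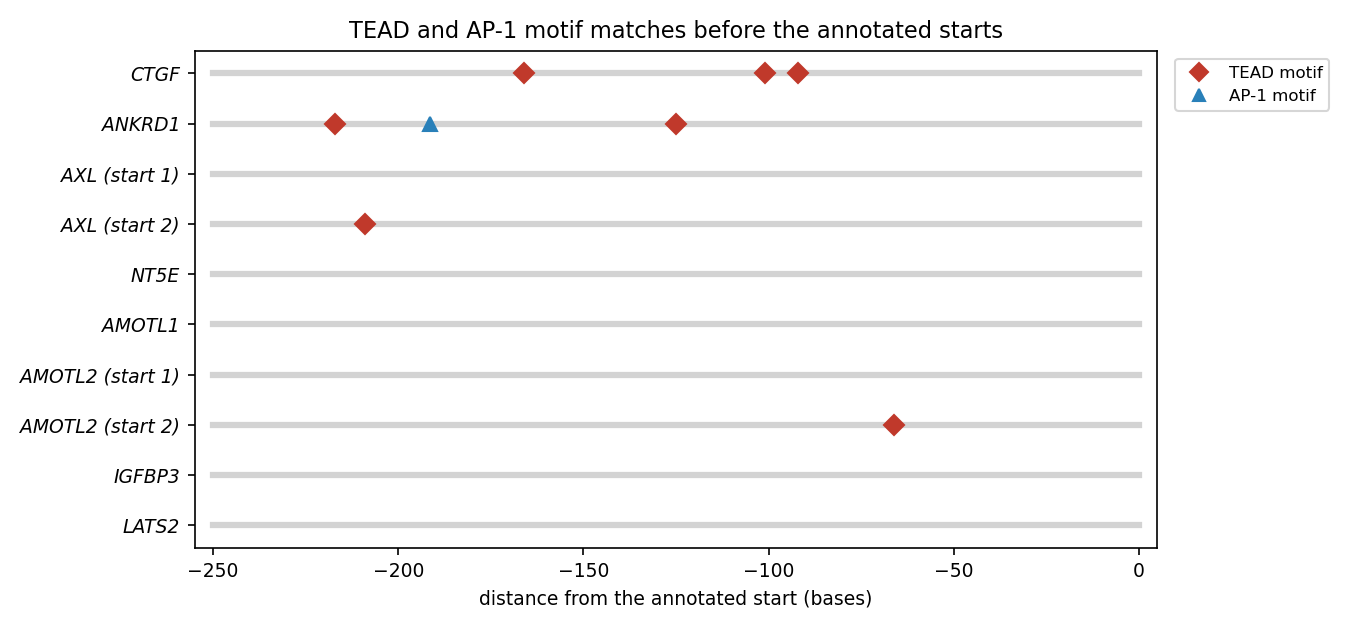
Position of TEAD motif matches (CATTCC on either strand, red diamonds) in the 250 bases before each annotated start that was searched, which leaves out CYR61 and DLC1. Blue triangles, labelled AP-1 motif, are matches to the looser pattern TGANTCA with any base at N. The start is at 0 on the x axis in bases, with 1 grey line per start. CTGF carries 3 TEAD matches and ANKRD1 2, while NT5E, AMOTL1, IGFBP3 and LATS2 carry none.

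All 10 genes averaged 1 FPKM or more across the 5 libraries and entered the limma fit on log2(FPKM + 1), where an adjusted p under 0.05 counts as a call. The median log2 fold change was 0.40 over the 10 genes and -0.0054 over all genes tested. For 9 of the 10 genes every Cal27-shGRK2 library lay on one side of all Cal27 libraries, 7 above and 2 below. Among all genes tested 53.3% were separated in this way, 25.9% above and 27.4% below. The 10 genes were chosen with earlier results known, so these counts describe them and are not independent evidence of a direction. The mean at least doubled, by the ratio of mean FPKM, in 3 of the 10 genes (a fold of 2.28 to 5.98). The largest fold was that of DLC1, which passed the filter only through Cal27-shGRK2. With so few libraries the exact two-sided permutation test over the 10 splits cannot go below p = 0.1, a value reached by 8 of the 10 genes, with LATS2 at 0.2 and CTGF at 0.4.

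**Figure D2:**
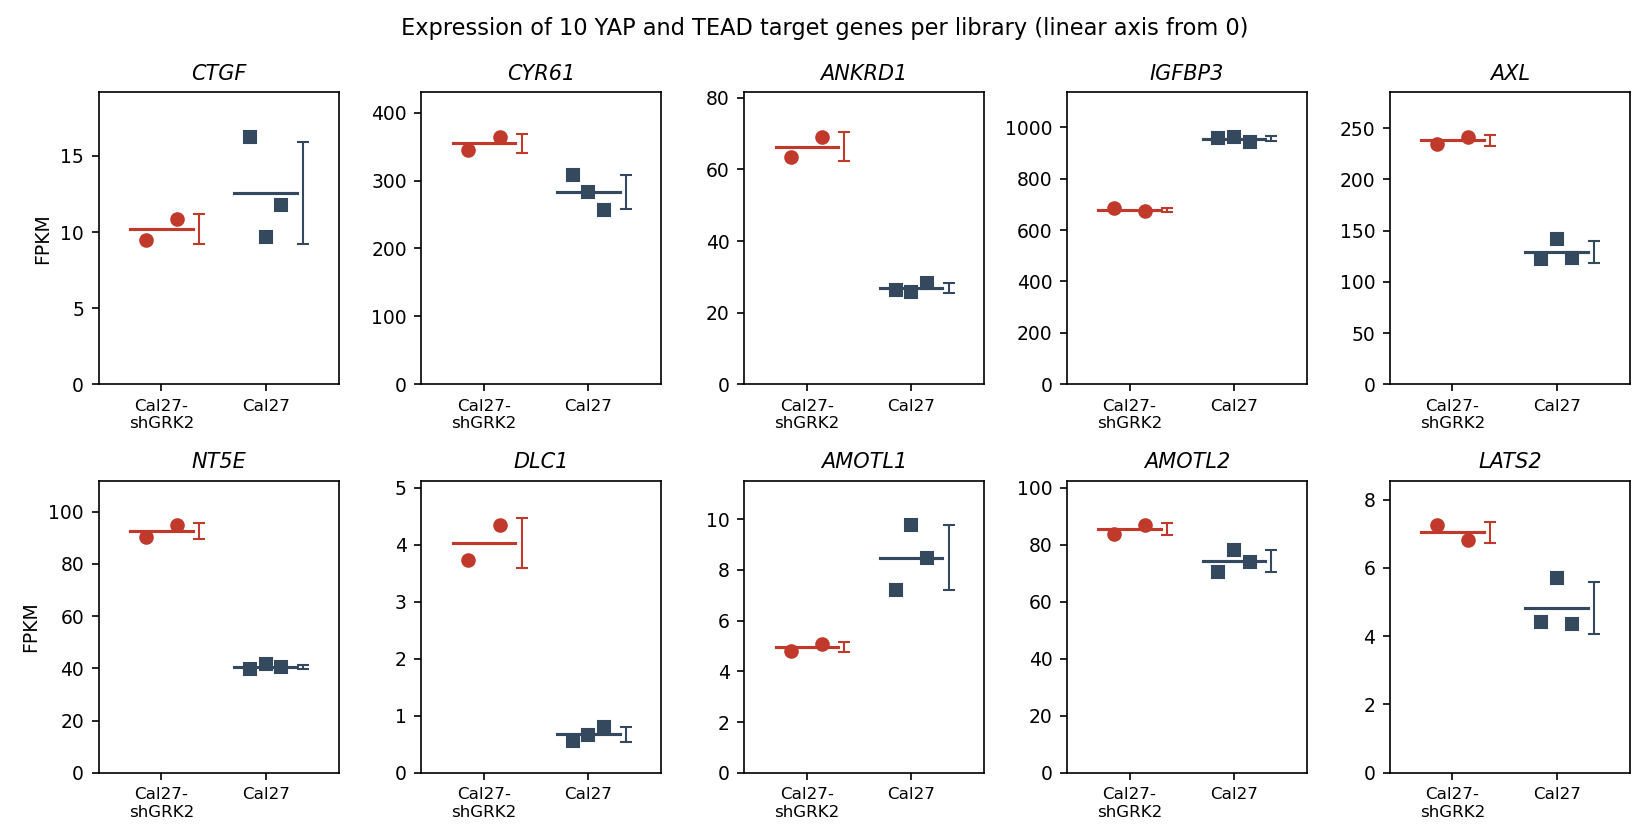
FPKM (y axis, linear from 0) of each of the 10 genes in the 2 distinct Cal27-shGRK2 libraries (circles, left) and the 3 Cal27 libraries (squares, right), with the mean as a line and the SD as a bar beside it. The groups separate in every panel except CTGF, where Cal27 runs over 9.69 to 16.3 FPKM around the 9.48 and 10.9 FPKM of Cal27-shGRK2.

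The levels of the 10 genes, compared per length in FPKM, ran from 679 down to 4.04 FPKM in Cal27-shGRK2 and from 956 down to 0.675 FPKM in Cal27, as group means. In Cal27-shGRK2 the order was IGFBP3, CYR61, AXL, NT5E, AMOTL2, ANKRD1, CTGF, LATS2, AMOTL1 and DLC1, with no overlap between the libraries of neighbours. In Cal27 the order was IGFBP3, CYR61, AXL, AMOTL2, NT5E, ANKRD1, CTGF, AMOTL1, LATS2 and DLC1. There CTGF and AMOTL1 overlapped, and the other neighbours did not. NT5E therefore stood above AMOTL2 in Cal27-shGRK2 and below it in Cal27, and LATS2 likewise stood above AMOTL1 only in Cal27-shGRK2. The summed FPKM of the 10 genes was 1526 and 1558 in Cal27-shGRK2 and 1493 to 1560 in Cal27, ranges that overlap. Most of that sum was 1 gene, since IGFBP3 made up 44.8% and 43.2% of it in Cal27-shGRK2 and 61.7% to 63.3% in Cal27.

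Among the secreted products, CYR61 rose, CTGF did not pass and IGFBP3 fell. CYR61 (chromosome 1, 85580761 to 85583962, plus strand, GENCODE version 29, hg38) encodes a matricellular protein that binds integrins. It had 345 and 365 FPKM in the Cal27-shGRK2 libraries, against 308, 284 and 257 FPKM in Cal27. Both Cal27-shGRK2 libraries lay above all Cal27 libraries, though the gap was smaller than the range of the Cal27 libraries. CYR61 rose by 0.33 ± 0.07 on the log2 scale (SE over 2 and 3 libraries, limma adjusted p = 0.00308, 1.25 times the Cal27 mean). The call was lost without Cal27-shGRK2 replicate 2 (limma adjusted p = 0.0559).

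CTGF (chromosome 6, 131948176 to 131951373, minus strand) encodes connective tissue growth factor, a close relative of CYR61 and a classic reporter of YAP. Its FPKM was 9.48 and 10.9 in Cal27-shGRK2, against 16.3, 9.69 and 11.8 in Cal27. The groups overlapped, and Cal27 replicate 0 stood above the other 4 libraries. Its difference on the log2 scale was -0.25 ± 0.24 (SE over 2 and 3 libraries, limma adjusted p = 0.526), with a 95% interval of -0.95 to 0.44 that leaves changes of either sign possible. Without Cal27 replicate 0 it was -0.07 (limma adjusted p = 0.669). The authors' deposited table marks CTGF as significant and lower (log2 fold change -0.31, q = 0.0128), so the authors' comparison and the limma fit differ for this gene. An antisense gene, AL133346.1, overlaps CTGF and had 0.121 and 0.337 FPKM in Cal27-shGRK2 and 0.296 to 0.689 FPKM in Cal27.

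IGFBP3 (chromosome 7, 45912245 to 45921874, minus strand) encodes a secreted carrier of insulin-like growth factors. It was the most abundant of the 10, at 684 and 673 FPKM in Cal27-shGRK2, against 960, 964 and 944 FPKM in Cal27. The groups lay far apart relative to a spread of 7.68 FPKM in Cal27-shGRK2 and 10.3 FPKM in Cal27 (SD). It fell by 0.49 on the log2 scale (SE 0.06, limma adjusted p = 7.35e-06). The Cal27 mean was 1.41 times the Cal27-shGRK2 mean.

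Among the cell surface and intracellular targets, ANKRD1, NT5E, AXL and DLC1 rose by more than CYR61. ANKRD1 (chromosome 10, 90912096 to 90921276, minus strand) encodes an ankyrin-repeat protein of muscle sarcomeres and nuclei. It had 63.5 and 69.2 FPKM in Cal27-shGRK2, against 26.3, 25.6 and 28.3 FPKM in Cal27. Each Cal27-shGRK2 library was more than double any Cal27 library. On the log2 scale the rise was 1.28 ± 0.07 (SE over 2 and 3 libraries, limma adjusted p = 1.69e-09), 2.48 times the Cal27 mean.

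NT5E (chromosome 6, 85449584 to 85495791, plus strand) encodes CD73, the surface enzyme that makes adenosine from AMP. It had 90.4 and 94.8 FPKM in Cal27-shGRK2, against 39.8, 41.5 and 40.4 FPKM in Cal27. Its Cal27 libraries were the tightest relative to their mean of the 10 genes apart from those of IGFBP3, with an SD of 0.866 FPKM. NT5E rose by 1.17 ± 0.06 on the log2 scale (SE over 2 and 3 libraries, limma adjusted p = 1.27e-09), 2.28 times the Cal27 mean.

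AXL (chromosome 19, 41219203 to 41261766, plus strand) encodes a receptor tyrosine kinase of the TAM family, and GAS6 is the ligand of AXL. It had 234 and 242 FPKM in Cal27-shGRK2, against 122, 141 and 123 FPKM in Cal27. The lowest Cal27-shGRK2 library stood well above the highest Cal27 library, Cal27 replicate 1. On the log2 scale AXL rose by 0.88 ± 0.07 (SE over 2 and 3 libraries, limma adjusted p = 1.3e-07), 1.85 times the Cal27 mean.

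DLC1 (chromosome 8, 13083361 to 13604610, minus strand) encodes a GTPase-activating protein. It had 3.73 and 4.35 FPKM in Cal27-shGRK2, against 0.55, 0.665 and 0.809 FPKM in Cal27. It was the lowest of the 10 in both groups, and it passed the filter only through the Cal27-shGRK2 libraries, so that some difference was built into its being tested. DLC1 rose by 1.59 ± 0.11 on the log2 scale (SE over 2 and 3 libraries, limma adjusted p = 3.58e-08). With a pseudocount of 0.1 in place of 1 it was 2.43, and the ratio of the mean FPKM was 5.98. DLC1 had the largest change of the 10 genes, and the 3 genes nearest to it over the 5 libraries were DNAJC15, RP4-555D20.1 and FAM222A-AS1. Their root-mean-square differences from DLC1 in centred log2(FPKM + 1) were 0.047, 0.055 and 0.073.

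Among the members that act on the pathway itself, the angiomotin relatives went in opposite directions. AMOTL1 and AMOTL2 encode junction-associated scaffolds that bind YAP and can hold it out of the nucleus. AMOTL1 (chromosome 11, 94706431 to 94876753, plus strand) had 4.81 and 5.09 FPKM in Cal27-shGRK2, against 7.20, 9.76 and 8.47 FPKM in Cal27. Both Cal27-shGRK2 libraries lay below all Cal27 libraries. It fell by 0.66 on the log2 scale (SE 0.10, limma adjusted p = 0.000222). The antisense gene AP002383.2, which overlaps AMOTL1, had 3.82 and 4.94 FPKM in Cal27-shGRK2 and 3.97 to 4.77 FPKM in Cal27. No source used here states whether counting was strand-specific, so reads of the pair may not be fully separated.

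AMOTL2 (chromosome 3, 134355874 to 134375479, minus strand) had 83.9 and 86.8 FPKM in Cal27-shGRK2, against 70.4, 78.0 and 73.9 FPKM in Cal27. The groups did not overlap, but the gap was small. On the log2 scale AMOTL2 rose by 0.20 ± 0.06 (SE over 2 and 3 libraries, limma adjusted p = 0.0256), the smallest of the 9 calls. It was lost without Cal27 replicate 0 (limma adjusted p = 0.105), Cal27 replicate 2 (0.0682), the Cal27-shGRK2 library of replicates 0 and 1 (0.0808) or Cal27-shGRK2 replicate 2 (0.166), and in limma without trend (0.0741). The authors' deposited table does not mark it (log2 fold change 0.20, q = 0.154). A pseudogene on the same strand, RPL39P5, overlaps it and had 5.27 and 0.671 FPKM in Cal27-shGRK2 and 0.0746 to 1.65 FPKM in Cal27. The ratio of AMOTL2 to AMOTL1 in FPKM was 17.4 and 17.0 in Cal27-shGRK2, against 9.78, 7.99 and 8.73 in Cal27. The founding member of the family, AMOT, was lower than both, at 2.03 ± 0.204 FPKM in Cal27-shGRK2 and 1.33 ± 0.0781 FPKM in Cal27 (SD, n = 2 and 3), and rose by 0.37 on the log2 scale (limma adjusted p = 0.0127, and 0.132 without Cal27-shGRK2 replicate 2).

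LATS2 (chromosome 13, 20973032 to 21061547, minus strand) encodes one of the kinases that inactivate YAP and is itself a feedback target. It had 7.26 and 6.83 FPKM in Cal27-shGRK2, against 4.42, 5.72 and 4.37 FPKM in Cal27. Cal27 replicate 1 was the highest of its group and still below both Cal27-shGRK2 libraries. LATS2 rose by 0.47 ± 0.10 on the log2 scale (SE over 2 and 3 libraries, limma adjusted p = 0.00258), and the call was lost by a narrow margin without the Cal27-shGRK2 library of replicates 0 and 1 (limma adjusted p = 0.0506). Its paralog LATS1 averaged 7.20 ± 0.396 FPKM in Cal27-shGRK2 and 7.01 ± 0.279 FPKM in Cal27 (SD, n = 2 and 3), and its difference of 0.03 on the log2 scale missed the threshold (limma adjusted p = 0.786).

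**Figure D3:**
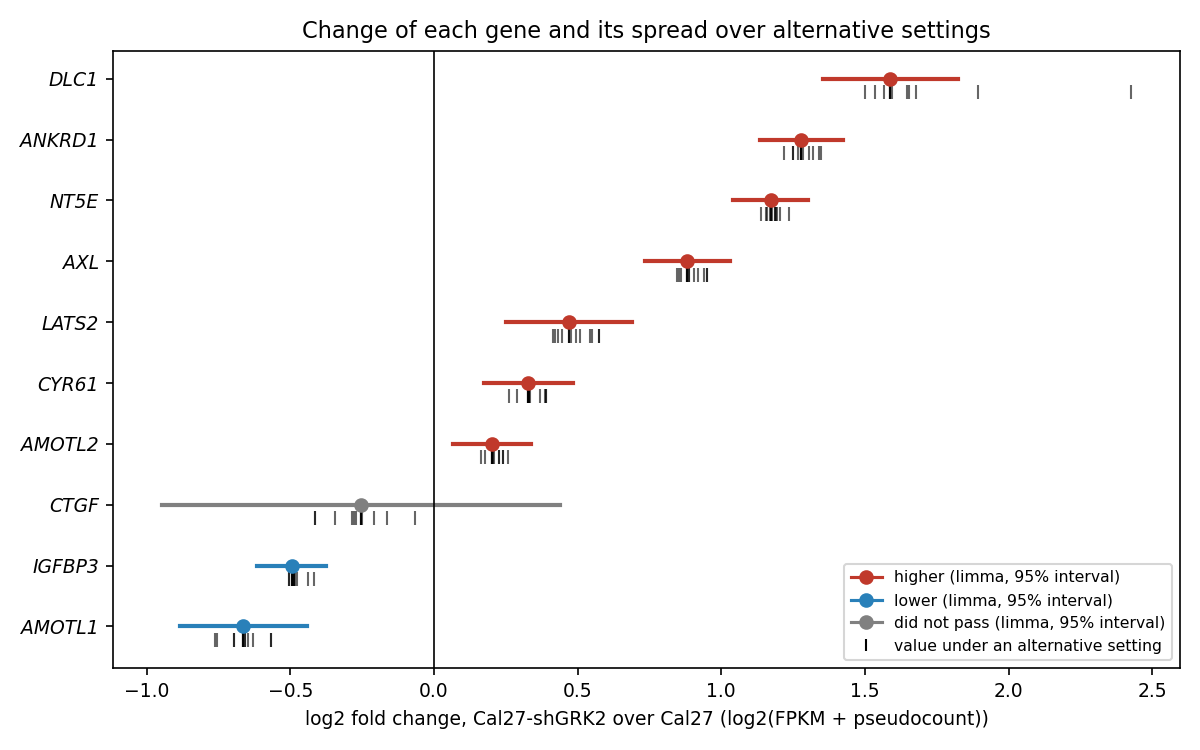
Log2 fold change (x axis, Cal27-shGRK2 over Cal27) of each of the 10 genes with its 95% interval from limma (coloured points and lines: red higher, blue lower, grey did not pass) and the values under alternative settings (black ticks below). DLC1, ANKRD1 and NT5E lie above 1, AMOTL1 and IGFBP3 lie below 0 throughout, and only the interval of CTGF, -0.95 to 0.44, includes 0.

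Direction did not change for any of the 10 genes in any of the alternative settings in which it was tested, CTGF included. ANKRD1, AXL, NT5E, DLC1, AMOTL1 and IGFBP3 also passed the threshold in every such setting. The authors' deposited table marks 9 of the 10 as significant, 6 higher and 3 lower, where it marks 16.8% of the 13377 genes tested here. It leaves out AMOTL2 and includes CTGF. In 8 of the 10 genes Cal27-shGRK2 replicate 2 had a higher FPKM than the library shared by replicates 0 and 1, whose total FPKM was also lower.

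Neither coactivator passed the test. YAP1 averaged 35.8 ± 1.63 FPKM in Cal27-shGRK2 and 36.7 ± 1.66 FPKM in Cal27 (SD, n = 2 and 3), with a log2 fold change of -0.03 ± 0.07 (SE, 95% interval -0.17 to 0.11, limma adjusted p = 0.743). WWTR1, which encodes TAZ, averaged 32.4 ± 3.26 FPKM in Cal27-shGRK2 and 32.5 ± 1.69 FPKM in Cal27 (SD, n = 2 and 3), with a log2 fold change of -0.0072 ± 0.07 (SE, 95% interval -0.16 to 0.15, limma adjusted p = 0.955). Both signs turned with rescaling to a common total, so no direction is given for either. Transcript levels say nothing of where the proteins are or how they are phosphorylated.

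The TEAD factors and their VGLL cofactors, which compete with YAP for TEAD, were less uniform. Of 10 coactivators, TEAD factors and VGLL cofactors tested, 4 were higher, 1 was lower and 5 were uncalled (median log2 fold change 0.11). Among all genes tested 15% were higher and 14.6% lower. This list, like those below, was chosen with earlier results of these data known, so such counts only describe it. TEAD1 rose to 39.0 ± 1.98 FPKM in Cal27-shGRK2, against 29.3 ± 2.50 FPKM in Cal27 (SD, n = 2 and 3, log2 fold change 0.40, limma adjusted p = 0.000754). TEAD2 fell to 1.03 and 0.894 FPKM in Cal27-shGRK2, against 5.24, 6.0 and 5.13 FPKM in Cal27. Its log2 fold change of -1.72 ± 0.10 (SE, limma adjusted p = 4e-09) was the largest fall among the tested genes of the pathway lists, and its Cal27-shGRK2 mean of 0.962 FPKM lay under the filter. TEAD4 (-0.18, limma adjusted p = 0.11) and TEAD3 (-0.12, 0.327) did not pass, and TEAD4 passed without Cal27 replicate 2 (0.041).

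VGLL1 had 8.07 and 6.67 FPKM in Cal27-shGRK2, against 1.41, 1.43 and 1.14 FPKM in Cal27, with a log2 fold change of 1.84 ± 0.11 (SE, limma adjusted p = 3.95e-09). VGLL2 had 36.8 and 39.2 FPKM in Cal27-shGRK2, against 14.3, 14.7 and 13.7 FPKM in Cal27 (log2 fold change 1.36, limma adjusted p = 9.06e-10). For both cofactors every Cal27-shGRK2 library lay above every Cal27 library. VGLL4 rose by 0.23 (limma adjusted p = 0.0203), a call lost without Cal27 replicate 2 (0.0907) or either Cal27-shGRK2 library (0.0744 and 0.146). VGLL3 had a log2 fold change of 0.26 and did not pass (limma adjusted p = 0.0944, and 0.0287 without Cal27 replicate 1).

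Among the kinases and upstream regulators of the Hippo pathway, 12 of 21 tested genes were higher, 0 were lower and 9 were uncalled (median log2 fold change 0.30). FRMD6, a FERM-domain scaffold that promotes LATS activation, had 108 and 121 FPKM in Cal27-shGRK2, against 50.5, 60.2 and 60.4 FPKM in Cal27 (log2 fold change 0.99, limma adjusted p = 1.31e-06). The kinases MAP4K4 (log2 fold change 0.66, limma adjusted p = 1.15e-06) and TAOK3 (0.48, 0.000404), which can activate the cascade, and STK3, the MST2 kinase (0.48, 3.49e-05), also rose. The LIM protein AJUBA, a LATS inhibitor (-0.10, limma adjusted p = 0.267), and the LATS cofactor MOB1A (-0.02, 0.86) were the most abundant genes of the list that did not pass. Of all genes tested 15% were called higher and 14.6% lower, shares that shrank when a Cal27-shGRK2 library was left out, to 1218 higher genes without Cal27-shGRK2 replicate 2 and 1088 lower genes without the Cal27-shGRK2 library of replicates 0 and 1.

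Of 20 tested genes on a second list of reported YAP and TEAD targets, 10 were higher, 2 were lower and 8 were uncalled (median log2 fold change 0.18). The shares among all genes tested were 15% higher and 14.6% lower. The Arf regulator ASAP1 (log2 fold change 0.82, limma adjusted p = 9.07e-07), the secreted glycoprotein FSTL1 (0.72, 5.96e-07) and CCDC80 (0.65, 8.59e-05) rose. DOCK5, an activator of Rac, fell by 0.24 (limma adjusted p = 0.0212), a call lost without Cal27 replicate 0 (0.0556) or either Cal27-shGRK2 library (0.171 and 0.0561). BIRC5, the mitotic regulator survivin, fell by 0.19 (limma adjusted p = 0.0435), a call lost in 7 of 14 alternatives, among them those without Cal27 replicate 0 (0.065), Cal27 replicate 1 (0.0865) or the Cal27-shGRK2 library of replicates 0 and 1 (0.362). The abundant targets THBS1, the matrix protein thrombospondin 1 (644 ± 2.61 FPKM in Cal27-shGRK2 and 584 ± 51.3 FPKM in Cal27, SD, n = 2 and 3, limma adjusted p = 0.138), and FJX1 (164 ± 7.81 FPKM in Cal27-shGRK2 and 183 ± 12.3 FPKM in Cal27, SD, n = 2 and 3, limma adjusted p = 0.0968) did not pass. THBS1 passed as higher without Cal27 replicate 1 (0.0111). A block per replicate number, another of the alternatives, gave THBS1 and BIRC5 the same fold changes as leaving out that library.

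**Figure D4:**
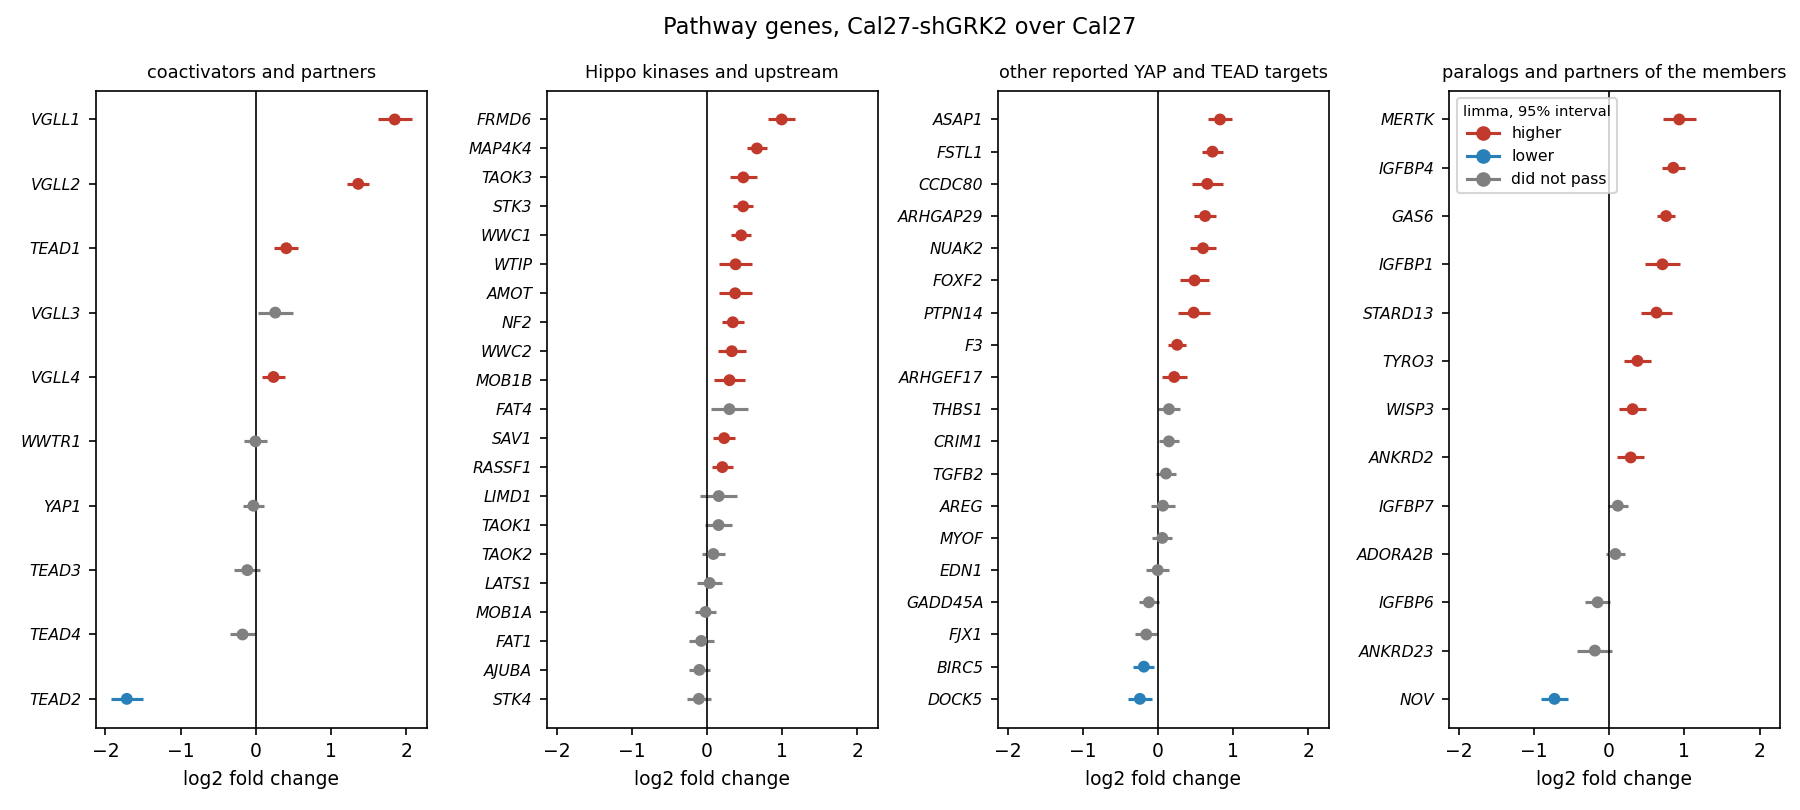
Log2 fold change (x axis, Cal27-shGRK2 over Cal27) with 95% intervals from limma for genes of 4 lists of the pathway, 1 gene per row (red higher, blue lower, grey did not pass). TEAD2 at -1.72 and VGLL1 at 1.84 mark the ends of the first panel, YAP1 and WWTR1 have intervals that include 0, and the second panel holds 12 higher and 0 lower genes.

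Among paralogs and partners of the 10 genes, the other TAM receptors and GAS6 rose with AXL, while the relatives of CTGF moved both ways. Of 13 tested, 8 were higher, 1 was lower and 4 were uncalled (median log2 fold change 0.31), where 15% of all genes tested were higher and 14.6% lower. GAS6, the ligand of AXL, had 396 and 395 FPKM in Cal27-shGRK2, against 228, 243 and 230 FPKM in Cal27 (log2 fold change 0.76, limma adjusted p = 1.12e-07). The other TAM receptors were higher too, with log2 fold changes of 0.93 for MERTK (limma adjusted p = 5.07e-06) and 0.38 for TYRO3 (0.00286, and 0.0537 without the Cal27-shGRK2 library of replicates 0 and 1). MERTK averaged 2.56 FPKM in Cal27-shGRK2 and 0.867 FPKM in Cal27, far below AXL, and passed the filter only through Cal27-shGRK2.

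STARD13, the paralog of DLC1, rose by 0.63 on the log2 scale (limma adjusted p = 0.000108). ANKRD2, of the ANKRD1 family, rose by 0.29 (limma adjusted p = 0.0183), a call lost without Cal27 replicate 2 (0.0758) or Cal27-shGRK2 replicate 2 (0.182). ANKRD23 of the same family had 1.94 and 1.78 FPKM in Cal27-shGRK2, against 2.02, 2.13 and 2.67 FPKM in Cal27, and did not pass (log2 fold change -0.19, limma adjusted p = 0.221). In the family of CTGF and CYR61, NOV had 3.60 and 4.03 FPKM in Cal27-shGRK2, against 7.09, 7.20 and 6.56 FPKM in Cal27, and fell by 0.73 (limma adjusted p = 1.11e-05). WISP3 rose by 0.31 (limma adjusted p = 0.0111), a call lost without either Cal27-shGRK2 library (0.0585 and 0.0824). The 4 measured genes of this family thus included 2 that rose, 1 that fell and 1 that did not pass.

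Of 4 other tested binding proteins of insulin-like growth factors, 2 rose and 2 did not pass. IGFBP4 averaged 34.9 ± 0.986 FPKM in Cal27-shGRK2 and 18.9 ± 1.51 FPKM in Cal27 (SD, n = 2 and 3, log2 fold change 0.85, limma adjusted p = 3.31e-07). IGFBP1 averaged 1.90 ± 0.242 FPKM in Cal27-shGRK2 and 0.768 ± 0.0171 FPKM in Cal27 (SD, n = 2 and 3, log2 fold change 0.71, limma adjusted p = 0.000128), and it too passed the filter only through Cal27-shGRK2. IGFBP7 (0.12, limma adjusted p = 0.173) did not pass, nor did IGFBP6 (-0.15, limma adjusted p = 0.171), although both Cal27-shGRK2 libraries, at 7.85 and 8.94 FPKM, lay below the 9.12 to 9.69 FPKM of Cal27. Also uncalled was ADORA2B, a receptor for the adenosine that CD73 makes (0.08, limma adjusted p = 0.322). The genes AMOT, LATS1, STARD13, TYRO3, WISP3, ANKRD2, ANKRD23 and IGFBP6 were named for their family after their values were seen.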

How the data were processed

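Libraries were stranded mRNA, per the labels' protocols. The submitters' processing notes name hg38 and the tools Cuffdiff 2.2.1, TopHat2 2.1.0 and Bowtie2 2.2.6, and no source used here names the gene annotation. The deposited table gives FPKM per library and per condition, with the log2 fold change of the authors' comparison, its test score (unused here), and p-values and q-values, per the file headers. A value of 0.0001 in the deposited FPKM columns was read as 0. Abundance was estimated rather than counted, so overlapping genes can exchange signal. Gene identifiers were matched to GENCODE version 29 (18503 of 18678, 99.1%).

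Genes averaging 1 FPKM or more across 5 distinct libraries were fitted on log2(FPKM + 1) with limma 3.58.1 in R 4.3.3 (trend, robust, 3 residual degrees of freedom), two-sided, Benjamini-Hochberg over 13377 genes, threshold 0.05. This understates changes of low genes. The fit was also run on data simulated with independent normal noise from the fitted model, which cannot show its error rate on these libraries. Named pathway genes were every coactivator and partner, and of each other list up to 4 called genes per direction with the largest change and the 2 most abundant uncalled ones. One gene that this rule names is counted in its list but not reported here by name or plotted. The members and lists were chosen with earlier results of these data known. Promoter windows came from RefSeq tables.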

Additional observations from a re-analysis of the deposited data

How the results depend on the processing

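Alternatives were a smaller pseudocount (0.1), a filter at 5 FPKM or none above 0, 3 scalings, limma without trend, a replicate block, an added Cal27-shGRK2 library computed from the authors' condition value, and leaving out each library. Of the 10 genes, 5 to 7 were called higher and 2 lower in each of them. DLC1 was not tested with the filter at 5 FPKM, where 6 were higher, and 6 were also higher in limma without trend. GRK2 kept its call, at -1.74 to -1.65 on the log2 scale. Leaving out single libraries gave 2600 to 4028 genes called, 1218 to 2205 higher and 1088 to 1843 lower. The split was 2927 higher and 1575 lower of 14483 genes tested with rescaling to a common total (TPM). It was 2008 and 1949 of 13377 as deposited. That rescaling moved the median of all genes tested by 0.051. The signs of uncalled genes turned with it for WWTR1 (0.048), YAP1 (0.021) and MOB1A (0.036). With single libraries left out, log2 fold changes ran from -0.11 to 0.093 for WWTR1, -0.079 to 0.011 for YAP1, -0.10 to 0.064 for MOB1A and -0.015 to 0.084 for LATS1. With the replicate block 3960 genes were called and WWTR1 was at 0.030. Cal27 replicate 1 has no partner in that block, so its fold changes are those found without Cal27 replicate 1. The block is therefore not a separate check of them. THBS1 (adjusted p = 0.0159) and VGLL3 (0.0368) passed as higher with the block, and BIRC5 lost its call (0.11). Deviations from the group means correlated at 0.0801 for number 0 and 0.0167 for number 2 over 13377 genes. The shared Cal27-shGRK2 library taken as number 1 gave -0.0714. With 2 Cal27-shGRK2 libraries the deviations of that group mirror each other, so these values cannot decide whether replicate numbers are paired. THBS1 also passed with rescaling to a common total (0.0248) and quantile normalization (0.0402), and IGFBP7 with the rescaling (0.0254). FJX1 passed as lower with the added library (0.047). Depth is unknown, so no counting limits are given.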
